A study of Mus musculus with 36 samples.

Results

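The transcripts described here are those of the 4 kinases that phosphorylate the translation factor eIF2 alpha, Eif2ak1 (HRI), Eif2ak2 (PKR), Eif2ak3 (PERK) and Eif2ak4 (GCN2), and of Impact, a protein that holds GCN2 back. They were picked by gene symbol and are 5 of the 36856 symbols in the count table, and all 5 were among the 16065 genes that were tested. The 36 libraries came from mouse embryonic fibroblasts (MEF), which are connective tissue cells cultured from embryos. Cells were wild type (WT) or PERK -/-, and each genotype received DMSO (the solvent), thapsigargin, BtdCPU, halofuginone, BtdCPU + thapsigargin or halofuginone + thapsigargin, with 3 libraries in each of the 12 groups. The labels give no dose, treatment time, batch or embryo of origin. They also do not say which piece of Eif2ak3 was deleted, or whether each genotype is a single line or clone, so the p-values below measure only the spread between these libraries.

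Phosphorylated eIF2 alpha lowers general translation while favouring a few mRNAs such as Atf4, and the resulting programme is called the integrated stress response (ISR). The kinases share a catalytic domain and differ in what turns them on. PERK sits in the membrane of the endoplasmic reticulum (ER) and reads unfolded protein there, GCN2 reads uncharged tRNA and stalled ribosomes together with its partner GCN1, HRI reads haem shortage and, through DELE1, mitochondrial stress, and PKR reads RNA duplexes. IMPACT binds GCN1 and so competes with GCN2, and its gene is imprinted in mouse and read from the paternal copy. Thapsigargin stops calcium uptake into the ER, so that proteins misfold there, BtdCPU is described as an activator of HRI, and halofuginone inhibits prolyl-tRNA synthetase and thereby activates GCN2. Kinase activity is set largely by phosphorylation, which these libraries do not measure.

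Library totals ran from 32454257 to 37178107 counts. Levels are given in CPM, each gene's share of the TMM-scaled library scaled to a common total, as mean ± SD over 3 libraries. Of 10 fibroblast markers, 9 exceeded 10 CPM, and their sum lay between 14550 and 39000 CPM in WT and between 13370 and 22830 CPM in PERK -/- libraries, while the epithelial sum stayed at or below 23.54, the leukocyte sum at or below 3.81, the endothelial sum at or below 5.057 and the muscle sum at or below 0.6215 CPM. The neural sum, at 10.33 to 226.9 CPM, was nearly all Tubb3. Xist was read at 485 ± 28.6 CPM in PERK -/- DMSO and at 0 in WT DMSO libraries, and the Y-linked Ddx3y at 0.00896 ± 0.0155 and 99.0 ± 11.4 CPM. The genotypes thus differed in sex-linked transcripts too, and a difference between genotypes cannot be told apart from a difference between the lines. In such bulk libraries fewer cells of a type and less RNA per cell cannot be told apart either.

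Differences are log2 fold changes ± SE from edgeR's quasi-likelihood test, and a gene is called when its Benjamini-Hochberg adjusted p over all tested genes is below 0.05. Between the genotypes, 2 of the 5 genes were called in DMSO, where 49.5% of all tested genes were, 3 in thapsigargin (65.6% of all), 3 in BtdCPU (53.0%), 3 in halofuginone (65.9%), 3 in BtdCPU + thapsigargin (60.3%) and 4 in halofuginone + thapsigargin (62.1%). These shares are close to the background, so the counts themselves say little about the 5 genes and the sizes carry the description.

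Within WT, 3 of 5 were called with thapsigargin against DMSO (47.6% of all tested genes), 2 with BtdCPU (22.2%) and 4 with halofuginone (68.2%). Adding a compound to thapsigargin called 0 with BtdCPU (2.32%) and 1 with halofuginone (45.3%), and adding thapsigargin to a compound called 1 over BtdCPU (40.4%) and 1 over halofuginone (14.0%). In PERK -/- cells the same 7 comparisons called 2 (27.9%), 1 (3.59%), 1 (42.2%), 2 (35.6%), 0 (52.7%), 2 (16.8%) and 1 (6.43%), in the same order. The response of PERK -/- cells minus that of WT cells was called for 0 genes with thapsigargin (38.1%), 0 with BtdCPU (0.199%), 1 with halofuginone (35.0%), 1 with BtdCPU added to thapsigargin (20.8%) and 0 with halofuginone added to thapsigargin (32.7%). Comparisons that share a control group, such as the 3 single agents against DMSO, are not independent of each other.

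The targeted gene, Eif2ak3, was lower in PERK -/- than in WT libraries under every treatment but was still read. In DMSO it stood at 30.31, 32.38 and 30.71 CPM in WT and at 9.369, 9.672 and 10.81 CPM in PERK -/- libraries, so the groups did not overlap. The difference was -1.65 ± 0.187 (edgeR adjusted p = 8.69e-09), which left 32.0% of the WT mean. Across treatments the log2 difference ran from -1.23 ± 0.188 with BtdCPU to -2.07 ± 0.189 with halofuginone, and raw counts in PERK -/- libraries ran from 279 to 1337. The direction matched the labels in every group, but the counts cover the whole gene and cannot show what the remaining transcript encodes.

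Eif2ak3 rose with thapsigargin in both genotypes and by nearly the same factor. In WT libraries it reached 79.08, 78.09 and 104.3 CPM, all above the DMSO libraries, a log2 change of 1.49 ± 0.180 (edgeR adjusted p = 4.44e-08). The PERK -/- libraries reached 26.04, 25.01 and 31.18 CPM, a change of 1.46 ± 0.186 (edgeR adjusted p = 3.06e-07). The difference between these responses was -0.02 ± 0.257, with a 95% interval from -0.53 to 0.48, and was not called (edgeR adjusted p = 0.977). The transcript that the mutant allele still makes was therefore at 2.75-fold of its own DMSO mean, beside 2.80-fold in WT cells.

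Neither compound alone raised Eif2ak3 past the threshold. With BtdCPU it fell in WT cells, to 16.38, 27.07 and 17.15 CPM, by 0.62 on the log2 scale (SE 0.180, edgeR adjusted p = 0.0121). The second library lay well above its partners, and the call was lost without replicate 1 (-0.51, adjusted p = 0.0993), without replicate 3 (-0.53, adjusted p = 0.0837) or when the compared groups were fitted alone (-0.64, adjusted p = 0.0794). Its change with BtdCPU in PERK -/- cells was -0.20 ± 0.189 (edgeR adjusted p = 0.70). With halofuginone the WT libraries spread from 29.32 and 32.66 to 55.53 CPM, and the change of 0.33 ± 0.178 was not called (edgeR adjusted p = 0.0991) unless WT halofuginone replicate 1 was left out (0.44, adjusted p = 0.0369). With halofuginone in PERK -/- cells Eif2ak3 stood at 10.14, 7.664 and 10.12 CPM, which overlapped DMSO.

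Thapsigargin raised Eif2ak3 on top of either compound. Over BtdCPU the change was 1.87 ± 0.183 in WT (edgeR adjusted p = 1.49e-09) and 1.26 ± 0.187 in PERK -/- cells (edgeR adjusted p = 7.79e-06). Over halofuginone it was 1.38 ± 0.179 in WT (edgeR adjusted p = 9.16e-07) and 1.78 ± 0.187 in PERK -/- cells (edgeR adjusted p = 3.27e-08). Adding a compound to thapsigargin gave no call in either genotype, with -0.24 ± 0.175 (WT) and -0.40 ± 0.180 (PERK -/-, edgeR adjusted p = 0.0822) for BtdCPU and 0.23 ± 0.175 and 0.23 ± 0.178 for halofuginone. The order of the 3 highest group means was the same in both genotypes: halofuginone + thapsigargin (102.2 ± 9.43 CPM in WT, 32.08 ± 3.71 in PERK -/-), thapsigargin (87.17 ± 14.9 and 27.41 ± 3.31) and BtdCPU + thapsigargin (73.98 ± 1.19 and 20.76 ± 2.93). The first pair in that order overlapped in both genotypes, and thapsigargin and BtdCPU + thapsigargin did not.

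The bases before the start of Eif2ak3 are shown because this was the kinase gene that moved most with thapsigargin. In the RefSeq promoter table (build GRCm38.p6), 4 of the 5 genes had a window of 250 bases before and 50 after the start, and the upstream part of Eif2ak3 lies at chr6:70844265-70844514 on the plus strand. It is printed 5′ to 3′ with every CCAAT box, on either strand, in capitals (ATTGG is the same box read from the other strand).
Eif2ak3 upstream: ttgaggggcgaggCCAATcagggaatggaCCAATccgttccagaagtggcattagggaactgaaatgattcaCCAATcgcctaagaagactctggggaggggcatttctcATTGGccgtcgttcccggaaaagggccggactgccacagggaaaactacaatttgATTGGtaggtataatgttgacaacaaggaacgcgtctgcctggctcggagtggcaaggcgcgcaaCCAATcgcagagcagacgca
The Eif2ak3 window held 6 CCAAT boxes, a number reached by 0.0791% of the 32851 windows in the table, beside 1 in Eif2ak1 and 0 in Eif2ak2 and Eif2ak4. The box was counted after the window had been read, as it is the first part of the ER stress element. The full element, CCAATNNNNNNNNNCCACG, was in none of the windows of the 4 kinase genes and in 0.119% of all windows, and ER stress element II, ATTGGNCCACG, was in none of theirs and in 0.0365% of all. The ATF4-C/EBP composite site, TGATGNAA, was likewise in none of theirs and in 3.97% of all windows. All motifs were searched on both strands. Such a match or its lack describes letters in this window only.

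**Figure D1:**
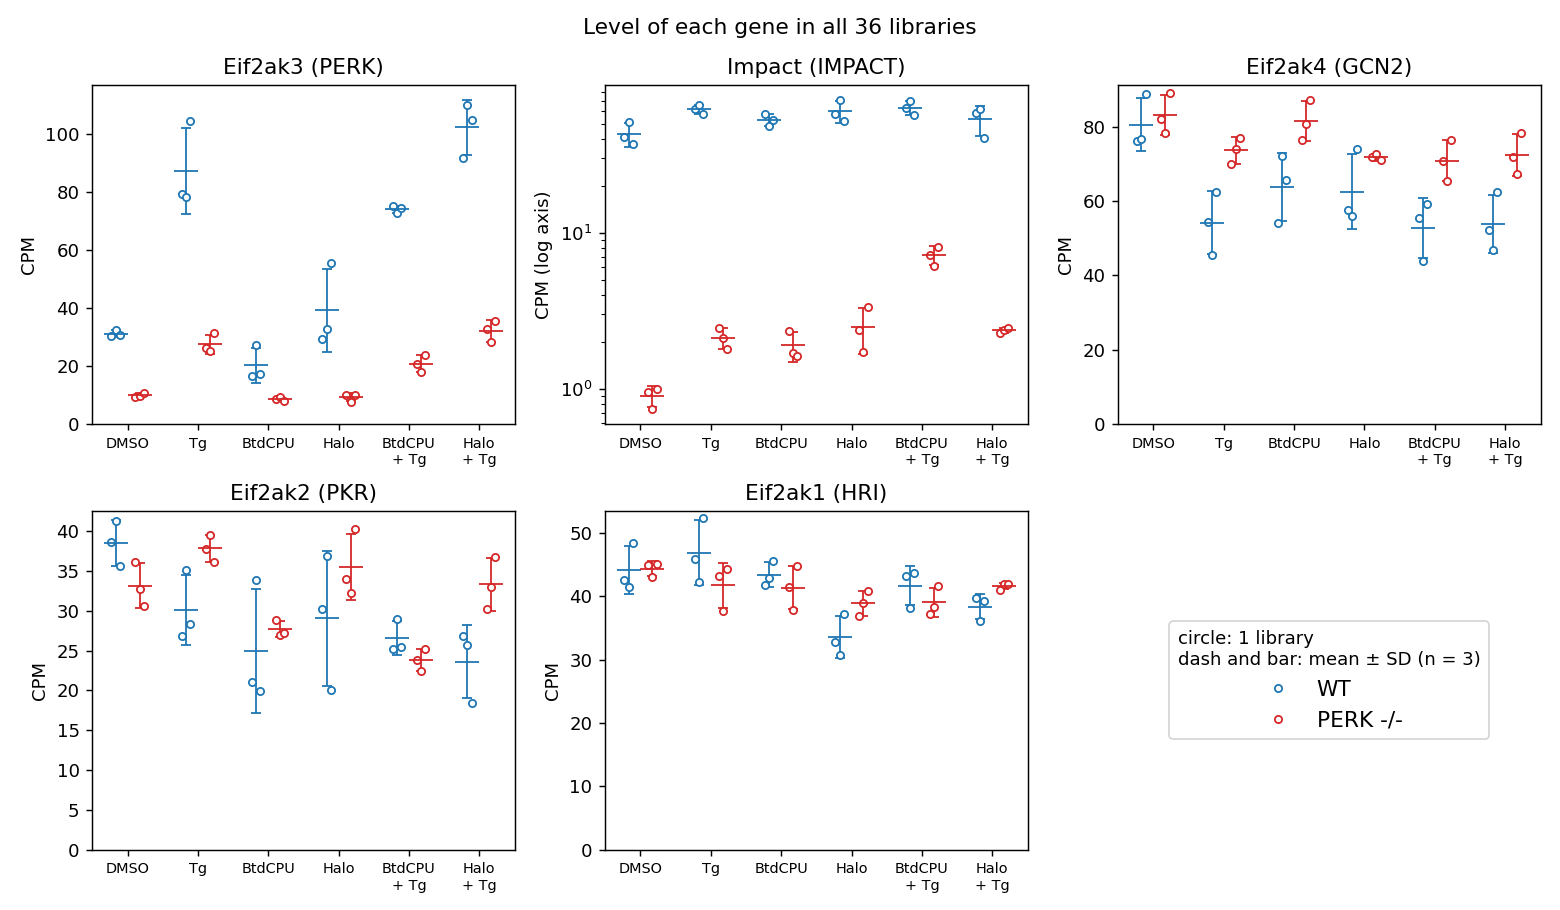
CPM of each gene (vertical axis, logarithmic for Impact only) by treatment for WT (blue) and PERK -/- (red) libraries, where Tg is thapsigargin and Halo is halofuginone. Circles are single libraries and dashes with bars are mean ± SD of 3. Eif2ak3 is high in all groups with thapsigargin, and Impact lies between 37.14 and 70.72 CPM in WT and between 0.744 and 8.133 CPM in PERK -/- libraries.

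Impact showed the largest difference between the genotypes of the 5 genes. In DMSO it was read at 41.00, 51.60 and 37.14 CPM in WT libraries and at 0.9561, 0.744 and 0.9951 CPM in PERK -/- libraries, the latter from 35, 27 and 37 counts. The log2 difference was -5.58 ± 0.222 (edgeR adjusted p = 1.52e-19), a WT mean 48.1-fold above that of PERK -/- cells. Under the other treatments it was -4.87 ± 0.203 with thapsigargin, -4.80 ± 0.204 with BtdCPU, -4.59 ± 0.200 with halofuginone, -3.14 ± 0.181 with BtdCPU + thapsigargin and -4.50 ± 0.199 with halofuginone + thapsigargin, all called. No PERK -/- library reached the level of any WT library. Counts ran from 27 to 301 in PERK -/- libraries and from 1200 to 2657 in WT libraries.

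The genes beside Impact differed far less between the genotypes. In DMSO the log2 differences were -0.66 ± 0.103 for Ttc39c, -0.31 ± 0.103 for Osbpl1a, -0.78 ± 0.142 for Zfp521 and -0.33 ± 0.0903 for Ss18, all called lower in PERK -/- cells, while Cabyr (-0.06 ± 0.60) was not and Hrh4 was not tested. Beside Eif2ak3, Thnsl2 differed by -3.88 ± 0.458 (edgeR adjusted p = 1.95e-08) from 2.71 ± 0.543 CPM in WT, while Rpia, on the list of its neighbours too, differed by -0.23 ± 0.157 and was not called.

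Within PERK -/- cells Impact rose with each agent alone. It was read at 2.439, 2.127 and 1.789 CPM with thapsigargin (1.23 ± 0.242 over DMSO, edgeR adjusted p = 0.000197). With BtdCPU it was at 2.355, 1.691 and 1.629 CPM (1.07 ± 0.245, edgeR adjusted p = 0.00756), and with halofuginone at 2.374, 1.73 and 3.346 CPM (1.46 ± 0.238, edgeR adjusted p = 8.52e-06). Every one of these 9 libraries lay above the 3 DMSO libraries. The BtdCPU call was lost without PERK -/- BtdCPU replicate 1 (0.88, adjusted p = 0.0839) or PERK -/- DMSO replicate 2 (0.95, adjusted p = 0.0644).

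The highest level of Impact in PERK -/- cells was found where BtdCPU and thapsigargin were combined. The libraries read 7.251, 6.126 and 8.133 CPM, from 271, 225 and 301 counts, and lay above all other PERK -/- libraries. The mean was 7.98-fold of the PERK -/- DMSO mean, with log2 changes of 1.76 ± 0.197 over thapsigargin (edgeR adjusted p = 2.83e-08) and 1.92 ± 0.200 over BtdCPU (edgeR adjusted p = 1.36e-08). Halofuginone + thapsigargin, at 2.276, 2.372 and 2.464 CPM, was at 2.64-fold of DMSO and differed from thapsigargin alone by 0.16 ± 0.212 (edgeR adjusted p = 0.546), with a 95% interval from -0.25 to 0.58. The 2 combinations did not overlap in their libraries, and the difference between them was not tested.

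In WT cells the changes of Impact were smaller. It was at 62.59, 65.94 and 57.71 CPM with thapsigargin, above all 3 DMSO libraries, a change of 0.52 ± 0.163 (edgeR adjusted p = 0.00934). Halofuginone gave 57.47, 70.72 and 52.02 CPM and a change of 0.47 ± 0.163 (edgeR adjusted p = 0.0115), and BtdCPU gave 0.29 ± 0.163, not called (edgeR adjusted p = 0.209). The thapsigargin call was lost without WT thapsigargin replicate 2 (0.42, adjusted p = 0.064), WT DMSO replicate 1 (0.43, adjusted p = 0.0652) or WT DMSO replicate 3 (0.37, adjusted p = 0.099). The halofuginone call was lost without WT halofuginone replicate 2 (0.28, adjusted p = 0.172), WT DMSO replicate 1 (0.37, adjusted p = 0.082) or WT DMSO replicate 3 (0.31, adjusted p = 0.129) or when libraries were scaled by their totals alone (0.34, adjusted p = 0.0766). Adding BtdCPU to thapsigargin changed Impact by 0.03 ± 0.162 in WT cells, and adding halofuginone by -0.21 ± 0.163, neither called.

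The response of Impact differed between the genotypes in 2 of 5 tests. BtdCPU added to thapsigargin raised it by 1.73 ± 0.256 more in PERK -/- than in WT cells (edgeR adjusted p = 8.65e-06), and halofuginone against DMSO by 0.99 ± 0.290 more (edgeR adjusted p = 0.0084). The second of these was lost without PERK -/- halofuginone replicate 3 (0.71, adjusted p = 0.0543). For thapsigargin the difference of 0.71 ± 0.293 was not called (edgeR adjusted p = 0.0542). Alternatives that called it included DESeq2 (0.69, adjusted p = 0.047) and leaving out WT DMSO replicate 3 (0.81, adjusted p = 0.0341) or PERK -/- thapsigargin replicate 3 (0.82, adjusted p = 0.0388). For BtdCPU the difference was 0.78 ± 0.295, not called (edgeR adjusted p = 0.341). These are changes relative to each genotype's own low or high baseline, and even the largest PERK -/- mean, 7.17 ± 1.01 CPM, was 11.3% of the WT mean under the same treatment.

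**Figure D2:**
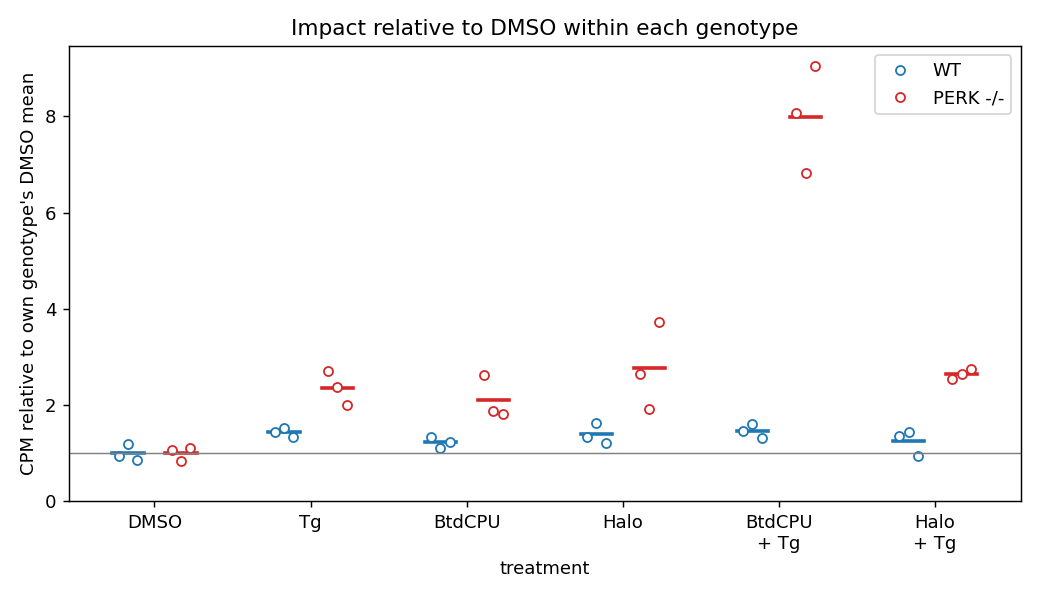
Impact in each library (circles) divided by the DMSO mean of its own genotype (vertical axis), by treatment, for WT (blue) and PERK -/- (red), with group means as lines. BtdCPU + Tg in PERK -/- cells stands at 6.82 to 9.05 times DMSO, and all WT libraries lie between 0.859 and 1.64.

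Eif2ak4, the gene of GCN2, fell in WT cells with thapsigargin and halofuginone. In DMSO it was at 76.20, 76.65 and 88.90 CPM. With thapsigargin it was at 54.45, 45.49 and 62.43 CPM (-0.57 ± 0.127, edgeR adjusted p = 0.000373), and with halofuginone at 57.50, 56.00 and 74.07 CPM (-0.37 ± 0.126, edgeR adjusted p = 0.0115). All treated WT libraries lay below the DMSO libraries, those with BtdCPU included (54.01, 72.03 and 65.60 CPM), although the BtdCPU change of -0.33 ± 0.126 was not called (edgeR adjusted p = 0.0545). Alternatives that called it included the fit without WT BtdCPU replicate 2 (-0.45, adjusted p = 0.0137), scaling by library totals alone (-0.40, adjusted p = 0.0144) and DESeq2 (-0.35, adjusted p = 0.0406). A further fit, described below, added the replicate number as a block, and more of the genes were called with BtdCPU against DMSO in WT. Adding either compound to thapsigargin moved Eif2ak4 by no more than -0.04 ± 0.127 in WT.

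In PERK -/- cells no treatment gave a called change of Eif2ak4. Its group means ran from 70.88 ± 5.54 to 83.13 ± 5.41 CPM, with a change of -0.18 ± 0.126 for thapsigargin (edgeR adjusted p = 0.331) and -0.21 ± 0.126 for halofuginone (edgeR adjusted p = 0.182). In DMSO the genotypes differed by 0.05 ± 0.126, not called, with an interval from -0.20 to 0.29. PERK -/- cells were higher with thapsigargin (0.44 ± 0.126, edgeR adjusted p = 0.00286), BtdCPU (0.35 ± 0.126, 0.0201), BtdCPU + thapsigargin (0.43 ± 0.126, 0.00461) and halofuginone + thapsigargin (0.43 ± 0.126, 0.00424). The difference in the thapsigargin response itself, 0.40 ± 0.178, was not called (edgeR adjusted p = 0.0773). Alternatives that called it included the fit without WT thapsigargin replicate 3 (0.51, adjusted p = 0.0312). Without WT BtdCPU replicate 1 or PERK -/- BtdCPU replicate 3 the BtdCPU difference was 0.25 (adjusted p = 0.141) or 0.30 (adjusted p = 0.0802), and without WT BtdCPU + thapsigargin replicate 2 that of the combination was 0.31 (adjusted p = 0.052).

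Eif2ak2, the gene of PKR, was highest in WT cells in DMSO, at 38.63, 41.29 and 35.60 CPM. With BtdCPU it fell to 21.03, 33.90 and 19.96 CPM (-0.62 ± 0.172, edgeR adjusted p = 0.00854), where the second library again lay above its partners, as for Eif2ak3. With halofuginone it was at 30.25, 36.88 and 20.01 CPM, a wide spread that overlapped DMSO, and fell by 0.41 on the log2 scale (SE 0.172, edgeR adjusted p = 0.0366). With thapsigargin the change of -0.35 ± 0.171 was not called (edgeR adjusted p = 0.0879), except without WT thapsigargin replicate 2 (-0.53, adjusted p = 0.0255) or WT DMSO replicate 3 (-0.46, adjusted p = 0.0498). Both Eif2ak2 calls were lost when certain single libraries were left out, although all WT BtdCPU libraries lay below the DMSO libraries. Without WT BtdCPU replicate 1 or 3 the BtdCPU value was -0.53 (adjusted p = 0.0724) or -0.50 (adjusted p = 0.0787), and without WT halofuginone replicate 3 or WT DMSO replicate 2 the halofuginone value was -0.26 (adjusted p = 0.18) or -0.41 (adjusted p = 0.062). With the compared groups fitted alone both were lost as well, at -0.64 (adjusted p = 0.0864) and -0.41 (adjusted p = 0.0923).

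In PERK -/- cells Eif2ak2 fell where BtdCPU was added to thapsigargin, from 37.78, 39.52 and 36.15 CPM to 23.87, 22.46 and 25.18 CPM. These groups did not overlap, and the change was -0.67 ± 0.172 (edgeR adjusted p = 0.00277), beside -0.18 ± 0.172 in WT cells, though the difference between the genotypes was not called (-0.48 ± 0.243, edgeR adjusted p = 0.168). Between the genotypes Eif2ak2 was called with halofuginone + thapsigargin (0.50 ± 0.172 higher in PERK -/-, edgeR adjusted p = 0.0133), which was lost without WT halofuginone + thapsigargin replicate 3 (0.39, adjusted p = 0.0684) or PERK -/- halofuginone + thapsigargin replicate 3 (0.42, adjusted p = 0.0593).

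PKR is known as an interferon-induced protein, and the interferon-stimulated genes were set beside it. With thapsigargin 12 of 16 tested rose in WT cells and 0 fell (median 1.63, against 0.02 over all genes, of which 47.6% were called), among them Rsad2 (6.76), Ifit3 (4.10), Ifit1 (3.64) and Usp18 (3.01), antiviral effectors and a brake on interferon signalling. In WT DMSO libraries Rsad2 was at 0.0381 ± 0.066, Ifit3 at 1.62 ± 1.14, Ifit1 at 3.92 ± 3.08 and Usp18 at 3.5 ± 2.73 CPM. The changes of these genes thus start from low levels with a wide spread. With thapsigargin in PERK -/- cells 8 interferon-stimulated genes rose and 0 fell (median 1.30, beside 27.9% of all genes called). Eif2ak2 did not rise in either genotype, at -0.35 ± 0.171 in WT and 0.19 ± 0.171 in PERK -/- cells. The difference between these responses, 0.545 ± 0.242, was not called (edgeR adjusted p = 0.0751). With halofuginone 9 of 16 rose and 0 fell in WT, beside 68.2% of all genes called in either direction, and with BtdCPU no interferon-stimulated gene was called in WT by edgeR, beside 22.2% of all genes. The Eif2ak2 window did hold an interferon-stimulated response element at 18 bases after the start, as do 3.44% of all windows. The 30 bases around it, at chr17:78882535-78882564 on the minus strand of GRCm38.p6, are given with the match in capitals.
Eif2ak2 site: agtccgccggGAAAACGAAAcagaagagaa
The windows of Eif2ak1, Eif2ak3 and Eif2ak4 held no match to this motif.

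Eif2ak1, the gene of HRI, moved least. Across all 36 libraries it ran from 30.8 to 52.4 CPM, and its group means differed by at most 1.40-fold in WT and 1.14-fold in PERK -/- cells. Halofuginone lowered it in WT, from 42.57, 41.37 and 48.41 CPM in DMSO to 32.76, 30.75 and 37.25 CPM, without overlap (-0.39 ± 0.0936, edgeR adjusted p = 0.000455). Halofuginone + thapsigargin was at 39.65, 36.04 and 39.28 CPM, below thapsigargin alone (45.91, 42.28 and 52.38 CPM) by 0.29 on the log2 scale (SE 0.0932, edgeR adjusted p = 0.0113). That call was lost without WT halofuginone + thapsigargin replicate 2 (-0.25, adjusted p = 0.0556), without WT thapsigargin replicate 3 (-0.23, adjusted p = 0.0615) or with the compared groups alone (-0.30, adjusted p = 0.0859).

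For BtdCPU, described as an activator of the HRI protein, no change of the HRI transcript was called. The change of Eif2ak1 was -0.02 ± 0.0931 in WT, with an interval from -0.21 to 0.16, and -0.10 ± 0.093 in PERK -/- cells, with an interval from -0.28 to 0.08. In DMSO the genotypes differed by 0.01 ± 0.093. With halofuginone they differed by 0.21 ± 0.0935 (edgeR adjusted p = 0.0475). That call of Eif2ak1 was lost with RLE scaling (adjusted p = 0.105), by DESeq2 (adjusted p = 0.0915), and without WT halofuginone replicate 2 (adjusted p = 0.0754), PERK -/- halofuginone replicate 2 (adjusted p = 0.0841) or PERK -/- halofuginone replicate 3 (adjusted p = 0.143). Eif2ak1 overlaps Aimp2 (79.7 ± 11.2 CPM in WT DMSO) and Ankrd61 (at most 0.606 CPM) on the opposite strand, and the labels call the libraries strand-specific but do not say how reads were counted.

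In 3 WT comparisons, all pairs of same-numbered replicates deviated together with r of 0.159 or more, and a second fit added the replicate number as a block. The other values and counts given for these comparisons come from the fit without the block. The block changed 2 calls. Eif2ak2 with halofuginone added to thapsigargin went from -0.35 ± 0.172 (edgeR adjusted p = 0.0972) to -0.36 (adjusted p = 0.0138). Eif2ak1 with thapsigargin added to halofuginone went from 0.19 ± 0.0936 (adjusted p = 0.191) to 0.19 (adjusted p = 0.0458). Over all genes, the calls went from 372 to 2079 with BtdCPU added to thapsigargin and from 2242 to 3929 with thapsigargin added to halofuginone.

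**Figure D3:**
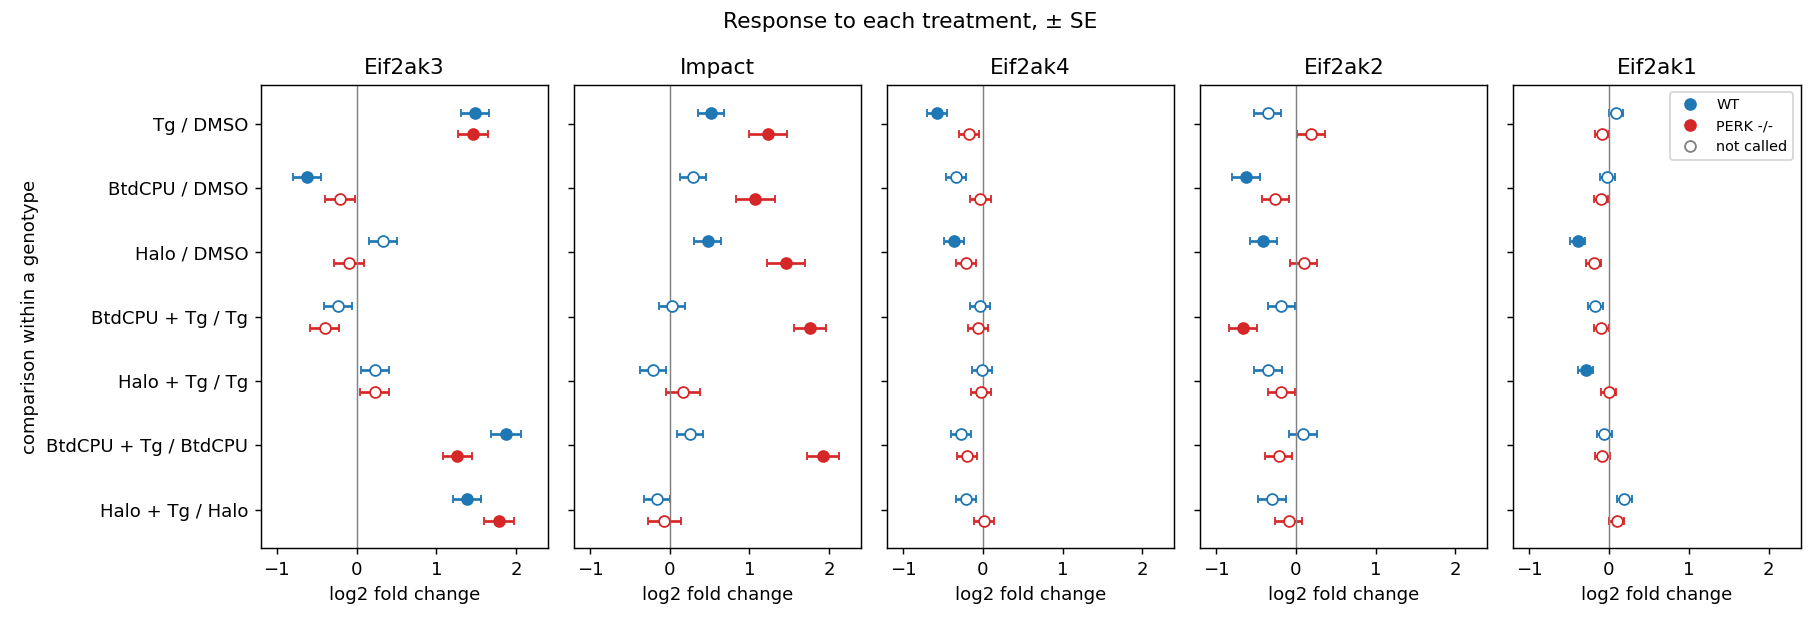
Log2 fold change ± SE (horizontal axis) of each gene in 7 comparisons within WT (blue) and PERK -/- (red), where the first named treatment is divided by the second; filled symbols are called at an adjusted p below 0.05. Eif2ak3 is filled in the 3 rows where thapsigargin is added, in both genotypes, and Impact reaches 1.92 in PERK -/- cells.

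Levels were set side by side between the kinase genes after division by the exon length of each gene (GENCODE M21). In WT DMSO libraries the CPM per kilobase was 10.8 ± 0.966 for Eif2ak4, 7.78 ± 0.664 for Eif2ak1, 7.53 ± 0.557 for Eif2ak2 and 5.17 ± 0.182 for Eif2ak3. The kinase genes summed to 31.3 ± 1.1 CPM per kilobase there and to 27.1 ± 0.87 in PERK -/- DMSO libraries. Of that sum Eif2ak4 held 34.5 ± 1.9% in WT and 41.1 ± 1.8% in PERK -/- cells, the largest share in both. Eif2ak3 held 16.5 ± 0.83% and 6.09 ± 0.42%.

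With thapsigargin Eif2ak3 became the largest share in WT cells, at 40.2 ± 2.3%, and reached 47.6 ± 3.3% with halofuginone + thapsigargin. Its share in PERK -/- cells reached 15.6 ± 1.3% and 18.4 ± 1.3% in those groups and stayed the smallest share of the 4 under every treatment. There Eif2ak4 held between 33.6 ± 0.75% and 43.6 ± 1.7%. Impact, also per kilobase, was at 8.43 ± 1.46 in WT DMSO, near the kinases, and at 0.175 ± 0.0263 in PERK -/- DMSO libraries. With the longest transcript in place of all exons the WT DMSO levels were 15.2 for Eif2ak4, 10.2 for Eif2ak1, 8.93 for Eif2ak2 and 6.90 for Eif2ak3, in the same order.

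**Figure D4:**
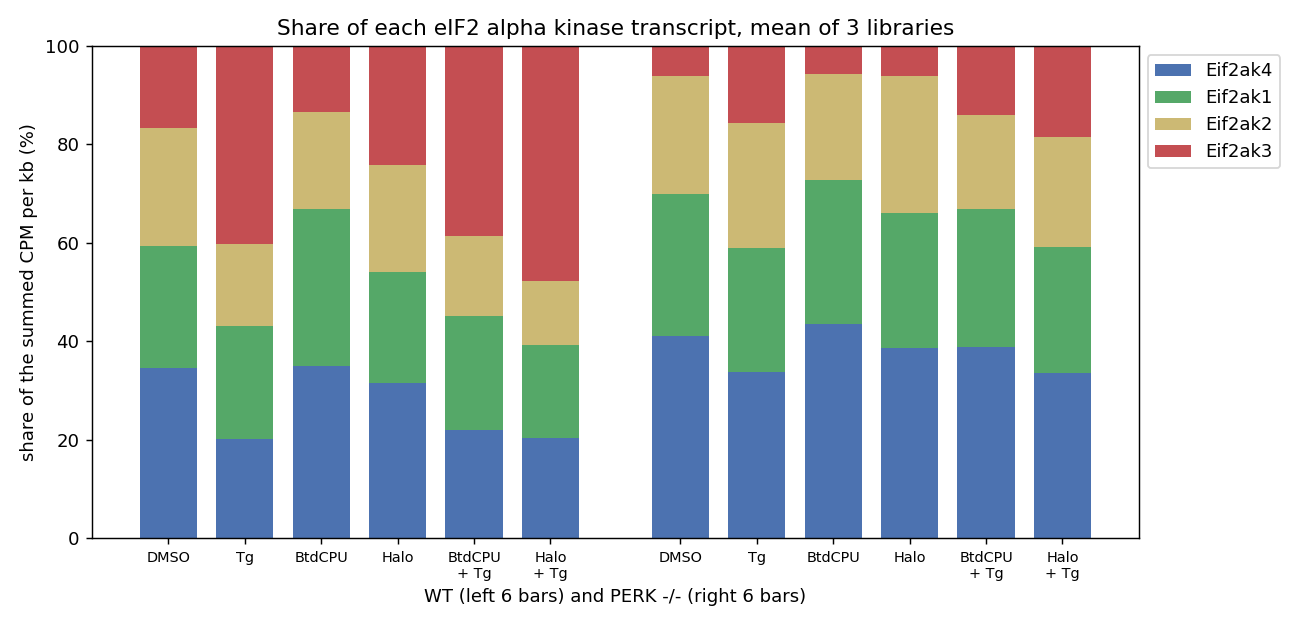
Share of each kinase transcript (vertical axis, percent) in the summed CPM per kilobase of the 4 kinase genes, as the mean of 3 libraries, in the 6 WT and 6 PERK -/- groups. Eif2ak3 (red) goes from 16.5% in WT DMSO to 47.6% with halofuginone + thapsigargin, and from 6.09% to 18.4% in PERK -/- cells.

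Genes whose products act on the kinases were taken from a list of 21, all tested. With thapsigargin in WT cells 7 rose and 6 fell (median -0.12, against 0.02 over all genes, of which 47.6% were called), and in PERK -/- cells 5 rose and 0 fell (median 0.07, against 0.05 over all genes, of which 27.9% were called). With halofuginone in WT cells 6 rose and 13 fell (median -0.47, against 0.00 over all genes, of which 68.2% were called), and in PERK -/- cells 6 rose and 5 fell (42.2% of all genes called). With BtdCPU 4 rose and 3 fell in WT cells (22.2% of all genes called), and 2 rose and 1 fell in PERK -/- cells (3.59% of all genes called). The values that follow in this paragraph are those with thapsigargin. On the PERK side, Hspa5, the ER chaperone that holds PERK inactive, rose by 3.85 in WT and 1.97 in PERK -/- cells. Dnajc3, whose product p58IPK inhibits PKR and PERK, rose by 2.39 and 1.39. On the PKR side, Adar, which edits RNA duplexes, rose by 0.93 in WT, and Prkra (PACT, an activator of PKR) and Tarbp2 (an inhibitor) fell by 0.86 and 0.40 on the log2 scale. None of these 3 was called in PERK -/- cells (0.09, 0.22 and -0.11), and the difference between the genotypes was called for Adar (-0.84) and Prkra (1.08) but not for Tarbp2 (edgeR adjusted p = 0.114).

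On the GCN2 side, Eprs, which encodes the glutamyl-prolyl-tRNA synthetase that halofuginone inhibits, rose with halofuginone by 1.41 in WT and 1.30 in PERK -/- cells. It also rose with thapsigargin in WT (1.35) and was not called in PERK -/- cells (0.14), a difference that was itself called (-1.21, edgeR adjusted p = 5.28e-08). The ribosome-sensing kinase gene Map3k20, listed as Zak, rose with halofuginone by 1.40 and 0.80, and Gcn1, listed as Gcn1l1, by 0.51 in WT (0.15 in PERK -/- cells, not called, and no called difference between the genotypes, edgeR adjusted p = 0.148). The ribosomal stalk genes Rplp0, Rplp1 and Rplp2 fell with halofuginone in WT by 0.66, 0.71 and 0.68 on the log2 scale and were not called in PERK -/- cells (-0.18, -0.19 and -0.13). The difference between the genotypes was called for Rplp0 (0.48) and Rplp2 (0.55) and not for Rplp1 (edgeR adjusted p = 0.0986). Rwdd1 fell by 0.36 in WT.

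On the HRI side, Hmox1, which breaks down haem, rose by 3.16 with thapsigargin and 1.71 with BtdCPU in WT, and by 0.98 and 1.13 in PERK -/- cells. Alas1, the first enzyme of haem synthesis, rose with BtdCPU in WT (0.77), and Fech, the last, was not called there (-0.01). Hspa8, a chaperone that binds HRI, fell by 1.02 with thapsigargin and 1.13 with halofuginone in WT, and changed by -1.57 with halofuginone in PERK -/- cells, also called. Dele1, listed as 0610009O20Rik, rose by 0.39 and 0.43 with thapsigargin in WT and PERK -/- cells, while Oma1, the protease that cleaves DELE1, fell by 0.34 in WT. Hsp90aa1 rose by 0.38 and Hsp90ab1 and Cdc37 fell by 0.50 and 0.33 with halofuginone in WT. The treatments named differ between these genes. The BtdCPU values of Hspa8, Dele1, Oma1, Hsp90aa1, Hsp90ab1 and Cdc37 are not given here.

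Of 13 genes of eIF2, eIF2B and the phosphatase that reverses the kinases, 3 rose and 3 fell with thapsigargin in WT, where 47.6% of all genes were called, and 0 rose and 6 fell in PERK -/- cells, where 27.9% were. Ppp1r15a (GADD34), the stress-induced phosphatase subunit, rose by 4.27 in WT and was not called in PERK -/- cells (0.34), with a called difference of -3.93 between them (edgeR adjusted p = 3.6e-11). It rose there by 3.35 where BtdCPU was added to thapsigargin. Eif2s1, which encodes eIF2 alpha itself, changed by 0.23 in WT (not called) and fell by 0.79 on the log2 scale in PERK -/- cells.

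Readouts of the pathways went with the treatments. With thapsigargin, 8 of 8 ISR readouts rose in WT (median 3.01), where 47.6% of all tested genes were called. In PERK -/- cells 6 of 8 rose (median 0.77), beside 27.9% of all genes. Of 12 ER stress readouts outside the PERK arm, 11 rose in each genotype (medians 2.60 and 1.58). The response in PERK -/- cells was called smaller for 8 of 8 ISR readouts (median difference -2.24) and larger for 0. For the ER stress readouts it was called smaller for 10 of 12 (median difference -1) and larger for 0, beside 38.1% of all genes called. With BtdCPU alone 8 of 8 ISR readouts rose in both genotypes, beside 22.2% (WT) and 3.59% (PERK -/-) of all genes called. With halofuginone alone 8 of 8 rose in both as well, beside 68.2% and 42.2%. Eif2ak3 was called in 1 of these 4 comparisons, as a fall. Added to thapsigargin in PERK -/- cells, BtdCPU raised 8 of 8 ISR readouts (median 1.98, 35.6% of all genes called) and halofuginone 7 of 8 (median 2.08, 52.7%). Impact moved by 1.76 ± 0.197 in the first of these and 0.16 ± 0.212 in the second.

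Over the 12 group means, centred within each genotype, the genes most like each member were ranked by Pearson correlation among 10565 genes. Both genes of a pair were read in the same libraries, and the values describe likeness only. Eif2ak3 was followed most closely by Edem3 (0.982), which trims mannose in ER-associated degradation, Ppip5k1 (0.972) and Selk (0.966), an ER selenoprotein. Eif2ak4 was followed by Tk1 (0.957), the thymidine kinase of S phase, Rgmb (0.957) and B4galt5 (0.954), and Eif2ak1 by Rfng (0.969), Tbx18 (0.950) and Mrps16 (0.935). Impact had looser partners, Alx1 (0.915), Scpep1 (0.874) and Mras (0.870), and for Alx1 the correlation over the WT groups alone was -0.102.

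The 3 genes most like Eif2ak2 were all mRNAs of mitochondrial DNA, COX2 (0.973), ND5 (0.969) and ATP6 (0.955), subunits of the respiratory chain and ATP synthase. Over the 13 mitochondrial mRNAs the correlation with Eif2ak2 ran from 0.681 to 0.973 (median 0.927). Over the libraries within groups, after each group's mean was taken off, it ran from 0.43 to 0.683 (median 0.615). With BtdCPU in WT cells 9 of the 13 fell and 0 rose (median -0.81), beside 22.2% of all genes called. Where BtdCPU was added to thapsigargin in PERK -/- cells 12 of 13 fell (median -0.94), beside 35.6% of all genes called. These were the same 2 comparisons in which Eif2ak2 fell most. The set of 13 was examined after this likeness had been seen, and whether the composition of the libraries accounts for it was not tested.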

How the data were processed

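Per the labels, RNA from MEF was extracted with a Quick-RNA mini kit and strand-specific libraries, with ribosomal depletion and mRNA selection, were sequenced on DNBSEQ. The submitters' processing notes name the build GRCm39 and DESeq without a role, and the counting tool is not given in the sources used here. The authors deposited a table of expected counts for 36930 entries, in which 0.025 stands for 0 (50.6% of values) and 2.69% of the others are not whole. Here 27 date-named entries (0.206% to 0.278% of a library) were left out, 39 repeated symbols were summed and counts were rounded. Libraries held 32454257 to 37178107 counts, and intervals cover the spread between libraries, not the origin of molecules. Replicates differed by more than counting noise (chi-square per degree of freedom at least 8.74).

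Genes kept by filterByExpr (16065) were scaled by TMM and tested with edgeR 4.0.16 in R 4.3.3 (quasi-likelihood, robust, 12 group means, 36 libraries, common dispersion 0.0199, 24 residual degrees of freedom) in 25 contrasts, with Benjamini-Hochberg adjustment within each and calls below 0.05. The fit was tested on simulated data. Groups came from the labelled genotype and treatment. In 3 WT comparisons same-numbered replicates correlated in all 3 pairs (r from 0.159 to 0.502). A second fit with the replicate number as a block was made for them, and values not named as coming from it are unpaired. In the other 17, r ran from -0.0273 to 0.287. The lowest r was below 0.159 in each of these, although in most of them all pairs were positive. The fit with the block gave, for Eif2ak2 with halofuginone added to thapsigargin in WT, -0.36. Named genes are the members, all 21 regulators, at most 4 of each other list by size of change, the 3 most correlated genes of each member (average log2 CPM of at least 2) and genes that overlap a member. The imprinted, sex-linked and mitochondrial genes fall outside this rule and were chosen after values were seen, and neighbours of Impact and Eif2ak3, also outside it, were taken by position. The members and lists were chosen with earlier results of these data known. Gene lengths, overlaps and neighbours came from GENCODE M21 (GRCm38), a build other than the one in the notes, so the 2 promoter windows printed, credited to RefSeq GRCm38.p6, are the only coordinates given. Alternatives were library-size and RLE scaling, DESeq2 1.42.0, no filter, the compared groups alone, the replicate number as a block, unsummed symbols and each library left out.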

Additional observations from a re-analysis of the deposited data

Results flagged for a closer look

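The response of Impact to halofuginone against DMSO was 0.99 higher on the log2 scale in PERK -/- than in WT cells, by the test of that difference (SE 0.290, edgeR adjusted p = 0.0084). Without PERK -/- halofuginone replicate 3 the difference for Impact was 0.71 and no longer called (adjusted p = 0.0543). The 3 PERK -/- libraries were at 1.93 to 3.72 times their DMSO mean and the WT libraries at 1.20 to 1.64 times theirs.

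The response of Impact to BtdCPU added to thapsigargin was 1.73 higher in PERK -/- than in WT cells (SE 0.256, edgeR adjusted p = 8.65e-06). In PERK -/- cells all 3 libraries with the combination lay above the 3 with thapsigargin, and in WT cells the groups overlapped.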

How the results depend on the processing

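Of 1775 values of the 5 genes under the alternatives, 1679 kept their side of the threshold, 34 lost a call and 62 gained one. A change of direction with a call in either fit was found for 0. Changes of direction between uncalled values were not counted. Listed below are only the comparisons in which the number of genes called changed by more than a set factor. Smaller changes, such as the loss of 1 gene where several were called, are not listed, including some given above for single genes. With scaling by library totals, the number of the 5 genes called became 5 between the genotypes with halofuginone, 2 with thapsigargin added to halofuginone in WT, 2 with halofuginone against DMSO in PERK -/- cells, and, for the difference between the genotypes' responses, 2 with halofuginone and 1 with halofuginone added to thapsigargin. Without the filter it became 2 with halofuginone added to thapsigargin and 2 with thapsigargin added to BtdCPU in WT, and 2 each for the difference in response to thapsigargin and to halofuginone. DESeq2 gave 1 for the difference in response to thapsigargin. With the compared groups alone it was 0 with BtdCPU against DMSO and 0 with halofuginone added to thapsigargin in WT, and 2 each for the difference in response to thapsigargin and to BtdCPU added to thapsigargin. The cause of these shifts was not tested.

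With the replicate number as a block, it was 5 between the genotypes with halofuginone, 4 with BtdCPU against DMSO, 2 with halofuginone added to thapsigargin, 2 with thapsigargin added to BtdCPU and 2 with thapsigargin added to halofuginone in WT, 2 with halofuginone against DMSO in PERK -/- cells, and for the difference in response 3 with thapsigargin, 2 with halofuginone, 2 with BtdCPU added to thapsigargin and 1 with halofuginone added to thapsigargin. In the 3 comparisons where same-numbered replicates correlated at 0.159 or more in all 3 pairs, the block changed no call other than the 2 given above. Elsewhere r ran from -0.0273 to 0.287. It was 0.0682, 0.254 and 0.287 for BtdCPU against DMSO in WT, and 0.0408, 0.201 and 0.279 for thapsigargin against DMSO in WT. For thapsigargin added to BtdCPU in WT it was 0.0264, 0.28 and 0.255. Whether same-numbered samples were paired in these other comparisons was not tested.

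With each library left out in turn, the number called ran from 3 to 5 between the genotypes with thapsigargin. Here too, smaller changes in other comparisons are not listed. In WT it ran from 0 to 3 with BtdCPU, 0 to 1 with halofuginone added to thapsigargin, 1 to 2 with thapsigargin added to BtdCPU and 1 to 2 with thapsigargin added to halofuginone, and in PERK -/- cells from 0 to 1 with BtdCPU. For the difference in response it ran from 0 to 1 with thapsigargin, 0 to 2 with halofuginone and 0 to 1 with halofuginone added to thapsigargin.

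Scaling by library totals moved the median of all genes by 0.136 and 0.159 between the genotypes with BtdCPU and halofuginone, and by -0.114 with halofuginone against DMSO in WT. The share of calls that were higher went from 58.1% to 45.1% with BtdCPU against DMSO in WT and from 55.9% to 80.7% with BtdCPU added to thapsigargin in WT. The precision of Impact in PERK -/- DMSO libraries was limited by its 27 to 37 counts.

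By the same set factor, the background counts over all genes also moved in 7 comparisons. In WT, 372 genes with BtdCPU added to thapsigargin became 813 without the filter, 702 by DESeq2, 34 with the compared groups alone and 41 without WT BtdCPU + thapsigargin replicate 3. The 3571 with BtdCPU against DMSO became 829 with the compared groups alone, 5534 with the block and 1756 without WT BtdCPU replicate 1, and the 2242 with thapsigargin added to halofuginone became 742 with the compared groups alone. In PERK -/- cells, 577 with BtdCPU became 1253 with the compared groups alone and 1577 with the block, 2701 with thapsigargin added to BtdCPU became 4200 and 4318, and 1033 with thapsigargin added to halofuginone became 1966 with the block. The 32 for the difference in response to BtdCPU became 314 without the filter, 131 by DESeq2, 2 with the compared groups alone, 587 with the block and 864 without WT BtdCPU replicate 2. The higher share also moved, with scaling by library totals, from 48.9% to 59.8% between the genotypes with BtdCPU, from 51.7% to 65.4% and from 58.3% to 76.2% with thapsigargin added to BtdCPU and to halofuginone in WT, and from 51.6% to 41.4% for the difference in response to BtdCPU added to thapsigargin.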

Other observations

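Impact is an imprinted gene, and 40 genes known as imprinted in mouse were looked up after the values of Impact had been seen, so what follows is a description, and the genes named were picked after their values were seen, with Sgce and Igf2r as examples of little difference. Of 30 tested in DMSO, 9 were higher and 13, Impact among them, lower in PERK -/- than in WT libraries (median -0.19, against 0.02 over all genes, of which 49.5% were called). The neighbouring Dlk1, Meg3 and Rian were at 251 ± 105, 56.9 ± 19 and 174 ± 54.0 CPM in WT and at 0.0538 ± 0.0932, 0.00918 ± 0.0159 and 0.0999 ± 0.0156 CPM in PERK -/- libraries. Grb10 (8.54 ± 2.44 against 0.0184 ± 0.0318 CPM), Asb4 (35.0 ± 2.73 against 0.262 ± 0.218), Peg12 (5.79 ± 0.294 against 0.0549 ± 0.0551) and Peg3 (0.991 ± 0.288 CPM against 0 counts) were low in PERK -/- DMSO libraries as well. The opposite held for Mest, at 0.118 ± 0.0348 CPM in WT and 11.5 ± 0.884 in PERK -/- libraries, and for Peg10, at 32.1 ± 2.57 and 140 ± 23.4 CPM. Sgce, next to Peg10, was at 88.1 ± 9.01 and 84.9 ± 10.1 CPM, and Igf2r at 242 ± 53.7 and 233 ± 22.2 CPM.

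The sex-linked genes, also chosen after values were seen, separated the genotypes fully. Ddx3y, Eif2s3y, Kdm5d and Uty had at most 7 counts in any PERK -/- library, and Xist had at most 14 counts in any WT library. Eif2s3x, the X-linked gene of the eIF2 gamma subunit, was 1.47 higher in PERK -/- DMSO libraries on the log2 scale, and Eif2s3y, its Y-linked partner, was at 82.5 ± 22.3 CPM in WT and 0 in PERK -/- DMSO libraries.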
